A study of Mus musculus with 3 samples.

Results

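Genes of the cell cycle were followed across 3 conditions of activated mouse CD4 T cells. The set was chosen by name, as 43 genes that drive, brake or mark cell division. An array probe set was assigned to a gene only where that gene was its single symbol, and the probe set with the highest mean deposited intensity stood for the gene. In this way 42 of the 43 genes were measured, out of 18193 named genes on the array. Ccnb1, a mitotic cyclin, had no probe set under its name in the annotation used here, and no value is given for it.

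All 3 samples were CD4+CD25- T cells from the spleens and lymph nodes of BALB/c females aged 6 to 8 weeks that lacked both Stat6 and T-bet (gene Tbx21). Every culture was activated for 2 days on plate-bound anti-CD3 at 5 µg/ml with anti-CD28 at 1 µg/ml, so no condition is unstimulated and all cells share the double deletion. The first received TGFβ at 5 ng/ml, the next IL-6 and IL-23 at 10 ng/ml each, and the last IL-6 at 10 ng/ml together with TGFβ at 5 ng/ml. Each condition has 1 array, so there is no replicate spread, no p-value and no way to tell the condition from its culture or array. The labels do not say how many mice were used or which part of either gene was deleted, so the probe sets of these genes do not check the genotype. Stat6 read 259, 191 and 223 and Tbx21 read 190, 205 and 118 on the TGFβ, IL-6/IL-23 and IL-6/TGFβ arrays, and this order of arrays is kept below.

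A T cell that is activated leaves rest through D-type cyclins with the kinases CDK4 and CDK6, which phosphorylate the retinoblastoma protein and free E2F transcription factors. E2F then drives the genes of DNA replication, and later B-Myb, FOXM1 and the release of the DREAM repressor drive those of mitosis. CDK inhibitors such as p21, p27 and the INK4 proteins oppose these kinases. TGFβ is known as a brake on T cell division, while IL-2 and costimulation promote it.

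Levels are quantile-normalized intensities in arbitrary units, and ratios between arrays are on the log2 scale. A floor of 87.8 was set at the 95th percentile of the intensities of 113 probe sets whose genes belong to tissues other than lymphoid ones. A gene counts as higher or lower where 2 arrays differ by 2-fold or more and the brighter of them lies above this floor. The only error these data allow is the spread of ratios between probe sets of 1 gene, an SD of 0.21 for IL-6/TGFβ versus TGFβ, 0.28 for IL-6/TGFβ versus IL-6/IL-23 and 0.29 for IL-6/IL-23 versus TGFβ. It leaves out differences between cultures, mice and arrays. The deposited intensities had medians of 35.8, 17.8 and 28.1, so the scaling between arrays matters for every ratio. All 13 measured T cell identity genes were above the floor on each array, while 0 of 7 B cell and 0 of 5 erythroid markers were. Of 8 CD8 T and NK cell markers 3, 2 and 1 were above it, and of 11 myeloid markers 1, 0 and 0.

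The promoters of the cell cycle genes were searched for short sequence motifs. RefSeq promoter windows (GRCm38.p6) of 250 bases before and 50 after the start site were held for 36 of the 43 genes. The stretches below are the 160 bases before the start, read 5′ to 3′ on the gene's strand, for 2 mitotic genes, 2 replication genes and the pair of genes that differed most between the arrays. Capitals mark E2F sites (TTTCCCGC, TTTGGCGC, TTTCGCGC or TTTGCCGC), the cell cycle genes homology region or CHR (TTTGAA or TTCGAA) and CCAAT boxes (CCAAT), on either strand. E-boxes (CACGTG) were searched too, and adjoining or overlapping matches form 1 run of capitals. The 2 CHR matches of Ccnb2 lie in its window but outside the stretch shown.
Ccnb2, chr9:70421555-70421714, minus strand: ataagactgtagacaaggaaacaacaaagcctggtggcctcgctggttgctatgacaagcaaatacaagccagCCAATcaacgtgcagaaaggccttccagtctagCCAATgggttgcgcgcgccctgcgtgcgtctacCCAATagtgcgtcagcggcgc
Cdk1, chr10:69352913-69353072, minus strand: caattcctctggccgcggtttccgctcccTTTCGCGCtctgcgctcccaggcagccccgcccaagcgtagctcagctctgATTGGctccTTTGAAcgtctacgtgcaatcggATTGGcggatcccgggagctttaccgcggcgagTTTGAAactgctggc
Mcm5, chr8:75109349-75109508, plus strand: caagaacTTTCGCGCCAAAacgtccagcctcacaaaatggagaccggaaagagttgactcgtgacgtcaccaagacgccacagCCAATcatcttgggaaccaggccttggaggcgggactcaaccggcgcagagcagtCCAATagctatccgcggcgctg
Mcm6, chr1:128359706-128359865, minus strand: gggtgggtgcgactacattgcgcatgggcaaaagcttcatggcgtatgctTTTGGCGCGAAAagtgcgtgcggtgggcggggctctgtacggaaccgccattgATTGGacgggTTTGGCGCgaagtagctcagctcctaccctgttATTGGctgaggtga
Cdk6, chr5:3343733-3343892, plus strand: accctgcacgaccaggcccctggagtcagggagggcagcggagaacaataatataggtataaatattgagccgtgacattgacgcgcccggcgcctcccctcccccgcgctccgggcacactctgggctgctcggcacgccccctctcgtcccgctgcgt
Myb, chr10:21160985-21161144, minus strand: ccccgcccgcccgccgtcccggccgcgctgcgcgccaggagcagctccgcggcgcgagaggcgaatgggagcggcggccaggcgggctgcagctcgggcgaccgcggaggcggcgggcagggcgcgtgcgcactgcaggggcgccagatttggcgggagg

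Over the whole windows, a CHR was found in 10 of the 13 S/G2 and mitosis genes with a promoter, against 21.7% of 27025 genes with one, and a CCAAT box in 12 of the 13, against 41.1%. Of 9 replication and nucleotide genes, 4 held an E2F site, namely Mcm3, Mcm5, Mcm6 and Mcm7, against 704 of the 27025 genes, and 8 held a CCAAT box. Only 1 of the 13 mitosis genes, Cdk1, held an E2F site of these spellings. Over all 36 genes with a promoter, 9 held an E2F site, 15 a CHR and 28 a CCAAT box. E2F sites and CHR matches were found in 0 of 3 G1 cyclin and kinase genes and 0 of 3 CDK inhibitor genes. Cdk6 held 1 E-box and none of the other motifs in its window, and Myb held 0 matches to the 4 motifs in the spellings searched. Other spellings of these motifs were not searched. A match is a description of letters in a window and not a measured binding site.

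**Figure D1:**
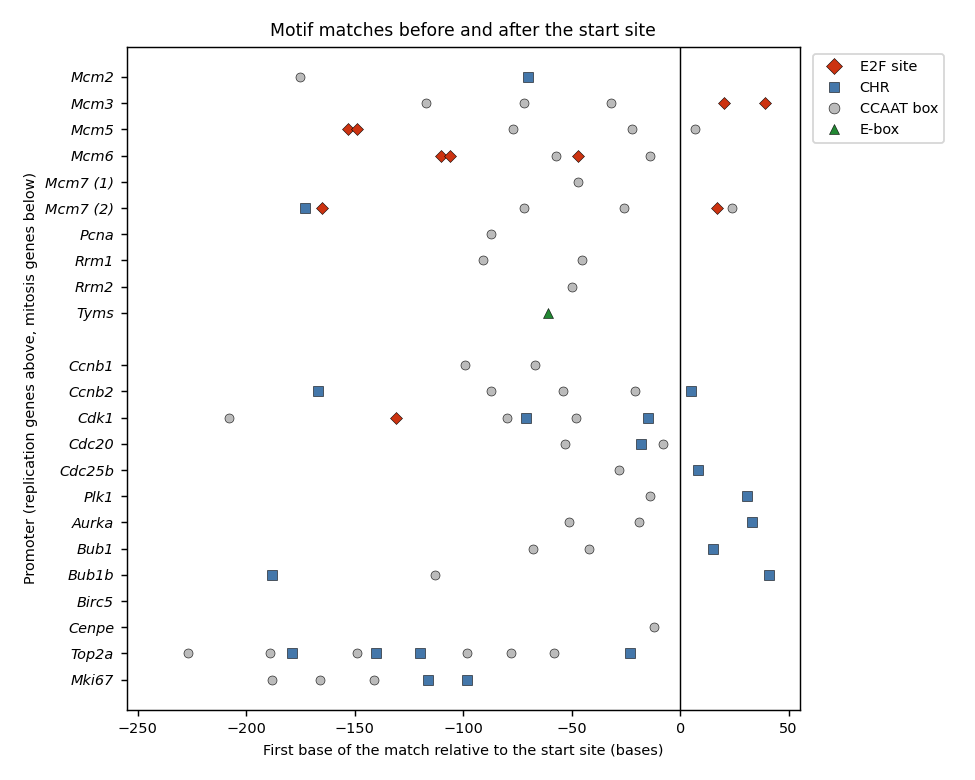
Position of each motif match in the promoters of replication genes (upper rows) and S/G2 and mitosis genes (lower rows); the x axis is the distance in bases of the first base of the match from the start site at 0, and each point is 1 match. CHR matches lie in 10 of 13 mitosis genes and E2F sites in 4 of 9 replication genes; a gene with a number after its name has more than 1 start site.

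On all 3 arrays the cell cycle genes were mostly bright and alike. Of the 42 genes, 41 were above the floor on every array, and the exception was Tyms, thymidylate synthase, whose probe sets under its own name were dim. In 30 of the 42 the highest and lowest arrays differed by less than 1.5-fold, and in 38 by less than 2-fold. The 12 genes that spread by 1.5-fold or more are 28.6% of the set, against 30.2% of the 8583 genes above the floor on at least 1 array, and the 4 genes at 2-fold or more are 9.52%, against 10.7%. The set was therefore about as variable as other expressed genes. The 4 genes were Myb, Cdk6, Cdkn1a and Cdkn1b.

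**Figure D2:**
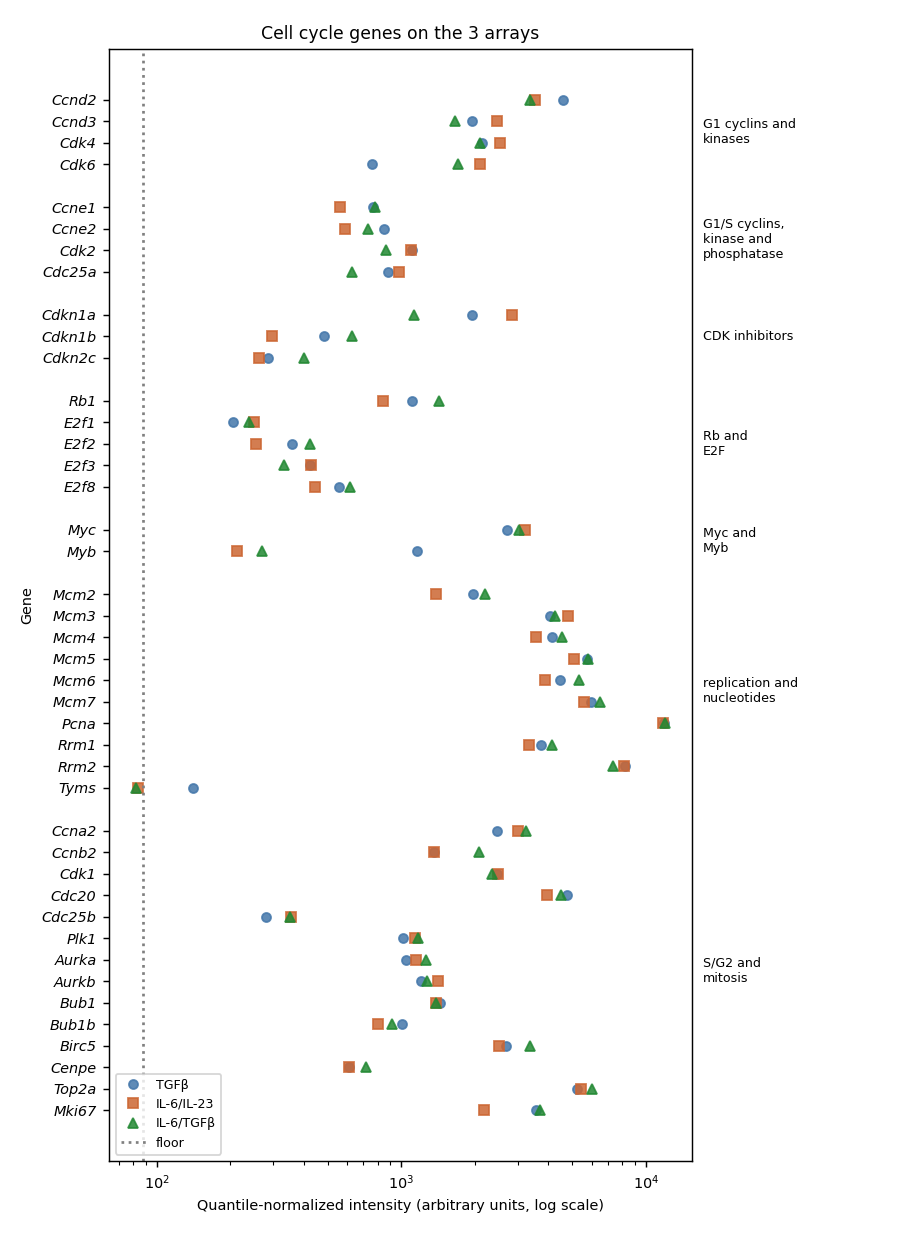
Quantile-normalized intensity (x axis, arbitrary units, log scale) of the 42 genes on the TGFβ (circle), IL-6/IL-23 (square) and IL-6/TGFβ (triangle) arrays, 1 array each, grouped by role; the dotted line is the floor of 87.8. The symbols of a gene mostly overlap, and those of Myb, Cdk6, Cdkn1a and Cdkn1b lie furthest apart; probe sets differ in brightness, so only arrays within a gene can be compared.

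Of the 4 kinase and cyclin genes of early G1, Cdk6 alone was 2-fold apart. Cdk6, which encodes a kinase that starts the exit from G1, read 759, 2091 and 1711. Both cultures with IL-6 were thus high and the culture with TGFβ alone was low. Its ratio was 1.17 for IL-6/TGFβ versus TGFβ (2.26-fold) and 1.46 for IL-6/IL-23 versus TGFβ (2.76-fold), and these comparisons share the TGFβ array. A further probe set read 856, 1727 and 1834 and gave 1.10 and 1.01. Without any scaling the first probe set gave 0.71 and 0.59, below 2-fold, while the median of all genes lay below 0. The IL-6 cultures themselves were close, at -0.29 and 0.09 for IL-6/TGFβ versus IL-6/IL-23 in the 2 probe sets.

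Cdk4, the partner kinase of the same step, read 2138, 2530 and 2096, so it did not share the pattern of Cdk6. Its other probe sets read 1676, 2352 and 1747, and 1837, 1618 and 1683. The probe sets of Cdk4 disagreed in sign in every comparison, so no direction can be given. Ccnd2, the D-type cyclin induced by cytokines in lymphocytes, read 4601, 3511 and 3350 and was highest with TGFβ alone. All 7 of its probe sets were lower with IL-6/TGFβ than with TGFβ alone, with ratios from -1.04 to -0.46, and all 7 were lower with IL-6/IL-23 than with TGFβ, from -1.19 to -0.08. The probe set that stood for the gene did not reach 2-fold (-0.46 and -0.39). Ccnd3, the other D-type cyclin of T cells, read 1943, 2464 and 1666 and was lowest with IL-6/TGFβ (-0.56 against IL-6/IL-23).

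At the G1/S boundary differences were smaller. Ccne1 and Ccne2 encode the E-type cyclins that activate CDK2. Ccne1 read 768, 564 and 783, but its other probe set, at 448, 599 and 456, gave the opposite sign for IL-6/TGFβ versus IL-6/IL-23 (-0.39 against 0.47), so no direction can be given. Ccne2 read 850, 589 and 731 on its single probe set. Cdk2 itself read 1104, 1100 and 867. Cdc25a, the phosphatase that activates CDK2, read 881, 979 and 628 and was lowest with IL-6/TGFβ (-0.49 over TGFβ, -0.64 over IL-6/IL-23), and a further probe set gave -0.25 and -0.42.

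The CDK inhibitors went in opposite directions. Cdkn1a, which encodes p21, read 1939, 2828 and 1124 and was lowest with IL-6/TGFβ, at 2.52-fold under IL-6/IL-23 (-1.33) and -0.79 over TGFβ. Its further probe set, at 570, 1055 and 385, gave -1.45 and -0.57. Cdkn1b, which encodes p27, read 483, 297 and 630 and ran the other way, 2.12-fold higher for IL-6/TGFβ versus IL-6/IL-23 (1.08, and 0.91 with median scaling, which is under 2-fold). It rests on 1 probe set, since the other was under the floor on all arrays. Cdkn2c, the INK4 inhibitor p18, read 286, 263 and 399 and was highest with IL-6/TGFβ (0.48 over TGFβ, 0.60 over IL-6/IL-23).

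**Figure D3:**
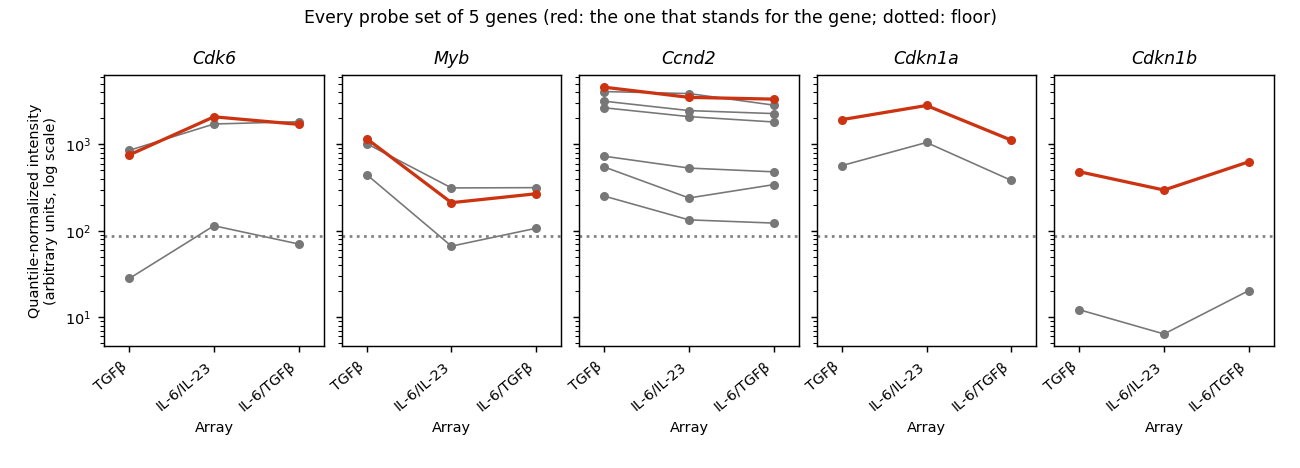
Quantile-normalized intensity (y axis, arbitrary units, log scale) of every probe set of Cdk6, Myb, Ccnd2, Cdkn1a and Cdkn1b on the 3 arrays (x axis); each line joins 1 probe set, red marks the probe set that stands for the gene and the dotted line is the floor of 87.8. The 3 probe sets of Myb are lower on both arrays with IL-6 than on the TGFβ array, the 7 of Ccnd2 are all highest on the TGFβ array, and the 2 of Cdkn1a peak on the IL-6/IL-23 array.

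Rb1 and the E2F genes stayed under 2-fold. Rb1, the retinoblastoma gene that restrains E2F, read 1109, 843 and 1426 and gave 0.76 for IL-6/TGFβ versus IL-6/IL-23 on the single probe set above the floor. E2f2, an activator E2F, read 357, 254 and 423, and its 2 probe sets gave 0.74 and 0.80 in that comparison. E2f1, another activator, read 205, 249 and 238. E2f3 read 422, 427 and 332, and E2f8, an atypical E2F that represses E2F targets late in S phase, read 555, 442 and 616.

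Myb and Myc, both transcription factors tied to lymphocyte proliferation, behaved unlike each other. Myb read 1162 with TGFβ, 212 with IL-6/IL-23 and 269 with IL-6/TGFβ, so it was high only in the culture without IL-6. The ratio was -2.11 for IL-6/TGFβ versus TGFβ (4.32-fold lower) and -2.45 for IL-6/IL-23 versus TGFβ (5.48-fold lower). A further probe set above the floor on all arrays read 1020, 314 and 317 and gave -1.69 and -1.70. The third, at 446, 66.6 and 107, was above the floor with TGFβ and IL-6/TGFβ only and gave -2.06 there. Myc, the growth regulator, read 2713, 3204 and 3043, and its ratios of 0.17, -0.07 and 0.24 lay within the probe-set spread. With median scaling they were 0.06, -0.36 and 0.41, of which -0.36 and 0.41 passed that spread. Relative to the median of all genes these became 0.14, -0.14 and 0.29, so how level Myc appears depends on the scaling.

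On the probe sets that stood for them, genes of DNA replication were nearly level after quantile normalization. Mcm2 to Mcm7 encode the 6 subunits of the helicase that opens replication origins. For IL-6/TGFβ versus TGFβ their ratios lay between 0.01 for Mcm5 (5738, 5065 and 5782) and 0.25 for Mcm6 (4479, 3862 and 5316). Mcm3 read 4069, 4802 and 4264, Mcm4 4140, 3552 and 4550, and Mcm7 5955, 5596 and 6480. Mcm2 stood out a little, at 1959, 1393 and 2195, or 0.66 for IL-6/TGFβ versus IL-6/IL-23, with 0.60 from its other probe set. Further probe sets gave the opposite sign for IL-6/TGFβ versus TGFβ, 1 of Mcm4 (-0.56), 1 of Mcm6 (-0.30) and 2 of Mcm7 (-0.36 and -0.11), so small ratios of this group have no settled direction. For IL-6/IL-23 versus TGFβ those of Mcm6 and Mcm4 gave -0.91 and -0.79, where the probe sets that stood for the genes gave -0.21 and -0.22. In that comparison the probe sets of Mcm3 ran from -0.43 to 0.36 and those of Mcm7 from -0.31 to 0.15. For IL-6/TGFβ versus IL-6/IL-23, median scaling moved Mcm3 from -0.17 to -0.47, Mcm5 from 0.19 to -0.11 and Mcm7 from 0.21 to -0.10.

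Pcna, the sliding clamp of the replication fork, read 11867, 11768 and 11998, the narrowest spread of the set at 1.02-fold after quantile normalization. With median scaling the ratios of Pcna were 0.21, -0.47 for IL-6/TGFβ against IL-6/IL-23 and 0.68 for IL-6/IL-23 against TGFβ, so its level values rest on the scaling. Rrm1 and Rrm2 form ribonucleotide reductase, which makes the deoxynucleotides for replication. Rrm1 read 3732, 3332 and 4151, and Rrm2 read 8243, 8183 and 7329 with a further probe set at 3185, 4298 and 4302. Rrm2 also moved with median scaling, from -0.16 to -0.60 for IL-6/TGFβ against IL-6/IL-23 and from -0.01 to 0.46 for IL-6/IL-23 against TGFβ. Tyms read 140 with TGFβ and was under the floor on both other arrays, which gives at least 1.60-fold. A probe set that names Tyms together with its pseudogene Tyms-ps was not used.

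On the probe sets that stood for the 14 measured genes of S/G2 and mitosis, Ccnb2 and Mki67 alone differed by 1.5-fold or more between any arrays. With median scaling neither did. Ccnb2 then stood at 0.48 for IL-6/TGFβ versus TGFβ and at 0.39 for IL-6/TGFβ versus IL-6/IL-23. Mki67 stood at 0.53 for IL-6/TGFβ versus IL-6/IL-23 and at -0.57 for IL-6/IL-23 versus TGFβ. Ccnb2, a mitotic cyclin, read 1364, 1356 and 2071 (0.60 over TGFβ, 0.61 over IL-6/IL-23). Mki67, the gene of the proliferation marker Ki-67, read 3573, 2175 and 3677 and was lowest with IL-6/IL-23 (-0.72 over TGFβ). Top2a, the topoisomerase that separates replicated DNA and a marker of the same cells, read 5216, 5457 and 6006. It did not share that dip on the probe set that stands for it. A dimmer probe set, at 385, 274 and 450, did, with -0.49 for IL-6/IL-23 versus TGFβ and 0.72 for IL-6/TGFβ versus IL-6/IL-23. In the latter comparison the brighter probe set gave 0.14, and -0.17 with median scaling. Each of Ccnb2 and Mki67 had 1 probe set. Since these are bulk samples, fewer dividing cells and less RNA per cell cannot be told apart.

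Cdk1, the kinase that starts mitosis, read 2462, 2492 and 2344, and Ccna2, its cyclin A partner, 2464, 3004 and 3250. The phosphatase gene Cdc25b read 280, 355 and 351. Plk1, a mitotic kinase, read 1016, 1133 and 1175, and the Aurora kinase genes read 1051, 1150 and 1262 (Aurka) and 1204, 1411 and 1280 (Aurkb). The spindle checkpoint genes read 1440, 1393 and 1386 (Bub1) and 1004, 802 and 915 (Bub1b). Cdc20, which activates the anaphase-promoting complex, read 4767, 3932 and 4521. A further Cdc20 probe set, at 2122, 2512 and 2987, gave 0.24 for IL-6/IL-23 versus TGFβ, where the former gave -0.28 and the dimmest -0.40. In that comparison the probe sets of Ccna2, Aurkb and Bub1b also disagreed in sign, so the direction of these genes there is not settled. Birc5, the survivin gene, read 2693, 2506 and 3357, and Cenpe, a kinetochore motor, 614, 613 and 717.

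**Figure D4:**
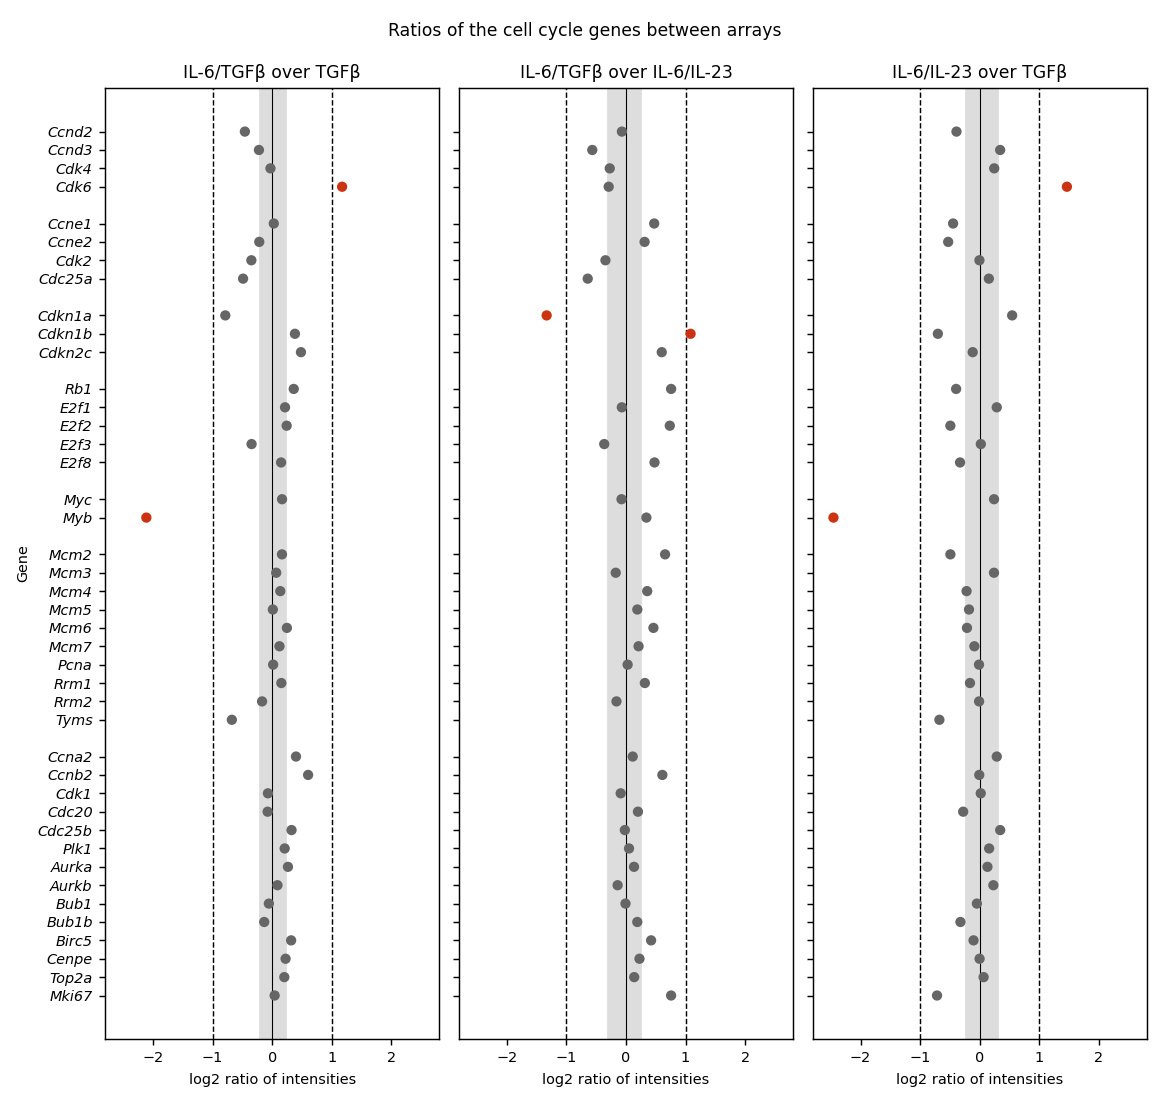
Log2 ratio (x axis) of each of the 42 genes in the 3 comparisons, 1 array against 1; dashed lines mark 2-fold, red points pass the 2-fold rule, and the grey band holds the middle 50% of all genes above the floor on at least 1 of both arrays. Cdk6 and Myb pass in both comparisons with the TGFβ array, and Cdkn1a and Cdkn1b pass for IL-6/TGFβ versus IL-6/IL-23, where Tyms is not drawn because both arrays were under the floor.

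Counted over the set, IL-6/TGFβ versus TGFβ held 1 gene higher (Cdk6) and 1 lower (Myb) of 42, or 4.76%. Among 8323 genes 4.43% passed the same rule, 2.57% higher and 1.86% lower. The median ratio was 0.11, against 0.02 for all genes. At 1.5-fold 2 genes were higher (Cdk6 and Ccnb2) and 3 lower (Myb, Cdkn1a and Tyms), or 11.9%, where all genes gave 13.7% (7.29% higher and 6.42% lower). For IL-6/TGFβ versus IL-6/IL-23, 1 gene was higher (Cdkn1b) and 1 lower (Cdkn1a) of 41, or 4.88%. Among 8449 genes 6.78% passed, 3.69% higher and 3.09% lower. The median was 0.14, against -0.03. At 1.5-fold 7 were higher (Mcm2, Mki67, Ccnb2, E2f2, Rb1, Cdkn1b and Cdkn2c) and 2 lower (Cdkn1a and Cdc25a), or 9 of 41 genes, where all genes gave 19.7% (9.78% higher and 9.89% lower). For IL-6/IL-23 versus TGFβ, 1 was higher (Cdk6) and 1 lower (Myb) of 42, or 4.76%. Among 8410 genes 6.34% passed, 3.22% higher and 3.12% lower, and the medians were -0.03 and 0.05. At 1.5-fold the lower genes were Myb, Mki67, Cdkn1b and Tyms, and Cdk6 was the 1 higher gene, or 11.9%, where all genes gave 18.1% (9.31% higher and 8.76% lower). The 2-fold shares are near the background and rest on 1 gene in each direction. The 1.5-fold shares are not all near it. For IL-6/TGFβ versus IL-6/IL-23 the split of 7 higher and 2 lower was uneven, where all genes were nearly even. For IL-6/IL-23 versus TGFβ the split was 1 higher and 4 lower, and the share of 11.9% lay below the 18.1% of all genes. These are few genes, and whether they differ from other genes was not tested. Each comparison shares an array with both others.

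Scaling decides the balance between higher and lower genes. Median scaling moved the median of all genes from 0.02 to -0.08, from -0.03 to -0.21 and from 0.05 to 0.12 in the 3 comparisons, and leaving the deposited values unscaled moved it to -0.42, 0.40 and -0.82. Among all genes past 2-fold, 58.0%, 54.5% and 50.8% were higher after quantile normalization, 45.9%, 37.0% and 55.2% after median scaling, and 14.8%, 89.1% and 2.42% without scaling. Median scaling shifts each array by a constant. Relative to the median of all genes it can therefore differ from no scaling only through the floor, and they are not separate checks. Read relative to those medians, the main differences stayed in place between quantile normalization and such a shift. Cdk6 over TGFβ lay 1.16, 1.14 and 1.13 above the median of all genes for IL-6/TGFβ under quantile, median and no scaling, and 1.41, 1.47 and 1.40 above it for IL-6/IL-23. Myb lay at -2.13, -2.12 and -2.14 for IL-6/TGFβ and at -2.51, -2.55 and -2.62 for IL-6/IL-23. For IL-6/TGFβ versus IL-6/IL-23, Cdkn1a lay at -1.30, -1.36 and -1.32, and Cdkn1b at 1.12, 1.12 and 1.17. Directions of small ratios are less secure. Relative to the median, 2 of 42, 3 of 41 and 4 of 42 genes changed sign with median scaling, and 2 in each comparison without scaling.

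Wider lists of the same pathway, none of them drawn from the set, were read in the same way. After quantile normalization 0 of 47 further replication genes were 2-fold apart in any comparison, where all genes gave 4.43%, 6.78% and 6.34%. Their median ratios were -0.01, 0.08 and -0.01 for IL-6/TGFβ versus TGFβ, IL-6/TGFβ versus IL-6/IL-23 and IL-6/IL-23 versus TGFβ. Of 61 further mitosis genes 0, 2 and 0 were higher and 0 were lower, so the most was 3.28% where all genes gave 6.78%. Their medians were 0.16, 0.27 and -0.11, those of all genes 0.02, -0.03 and 0.05, and median scaling turned the last of the list to 0.02. The 2 were the condensin subunit gene Ncaph, at 1814, 975 and 2360 (1.27), and Racgap1, which acts in cytokinesis, at 1243, 949 and 1975 (1.06); Racgap1 was 0.83 with median scaling, below 2-fold.

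A list made mostly, but not only, of genes that brake the cycle or go with quiescence was read last. Of 30 genes in this list, 3 were higher and 0 lower for IL-6/TGFβ versus TGFβ (10.0%, against the 4.43% of all genes). For IL-6/TGFβ versus IL-6/IL-23, 4 were higher and 0 lower (13.3%, against 6.78%). For IL-6/IL-23 versus TGFβ, 2 were higher and 2 lower (13.3%, against 6.34%). With median scaling the shares were 3.33%, 10.0% and 13.3%, where all genes gave 4.24%, 7.33% and 6.77%, so the first share rests on the scaling. These are few genes, and whether the list differs from other genes was not tested. Mxi1, a MAX partner that opposes Myc, read 381, 379 and 1071 and was higher with IL-6/TGFβ than on both others (2.81-fold and 2.82-fold). Cdkn2d, the INK4 inhibitor p19, read 903, 1999 and 1923, high in both IL-6 cultures as Cdk6 was (1.09 and 1.15 over TGFβ); the first was 0.98 with median scaling. Mnt, another Myc antagonist, read 170, 289 and 349 (1.04 over TGFβ, and 0.91 with median scaling).

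Mxd1, of the same family as Mxi1, read 304, 142 and 373 and was low with IL-6/IL-23 (1.40 for IL-6/TGFβ over it, and -1.10 for it over TGFβ). Klf2, a quiescence factor of T cells, read 309, 92.5 and 339 and had the same shape (1.88 and -1.74). Btg2, an antiproliferative gene, read 387, 928 and 711, with 1.26 for IL-6/IL-23 versus TGFβ.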

How the data were processed

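Total RNA of 3 cultures was labelled with biotin and hybridized to Affymetrix arrays, 1 per condition, per the labels' protocols. Each probe set has 1 deposited intensity per array, on a linear scale. Which software, scaling and background correction the authors applied is not given in the sources used here. Precision is limited by the number of arrays.

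Here 64 control probe sets of 45101 were left out, values under 1 were raised to 1, and log2 intensities were quantile-normalized (limma 3.58.1, R 4.3.3), since array medians differed by more than 10%. This removes any true difference in total mRNA. Of the rest, 34945 probe sets had 1 gene symbol. Entrez identifiers of all 42 measured genes matched the same symbol in RefSeq (GRCm38.p6). Values under the floor were raised to it. In the list behind the floor, 6 of 69 genes exceeded it somewhere, among them Mbp, so the floor is a high one. Probe sets ending in _x_at or _s_at, which stood for 8 of the 42 genes, can bind more than 1 transcript.

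All 42 genes could be named. From other lists, up to 3 genes per direction and comparison were named, by largest ratio past 2-fold. The genes and lists were chosen with earlier results of these data known, so their counts are descriptions. The calling rule was tested on simulated data.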

Additional observations from a re-analysis of the deposited data

How the results depend on the processing

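The counts and medians of the 42 genes were recomputed with 2 other scalings, 2 other floors, 2 other rules for the probe set, a 1.5-fold rule and, chosen after seeing the data, without probe sets ending in _x_at or _s_at. Both other floors, the probe set with the highest normalized mean and the last setting kept every count at 1 and the same 4 genes. With the mean of all probe sets, and with median scaling, 0 genes were higher for IL-6/TGFβ versus IL-6/IL-23, because Cdkn1b stood at 0.37 and 0.91. In the first case its dim probe set enters the mean. The other counts kept to 1 gene in these settings. Without scaling, 0 genes were higher and 3 lower for IL-6/TGFβ versus TGFβ (median -0.31), 7 higher and 0 lower for IL-6/TGFβ versus IL-6/IL-23 (median 0.55), and 0 higher and 16 lower for IL-6/IL-23 versus TGFβ (median -0.93). The medians of all genes moved alike. With the 1.5-fold rule, after quantile normalization only, the counts in the same order were 2 and 3, 7 and 2, and 1 and 4. Median scaling took genes across this line in each comparison, for example Ccnb2 at 0.48, Rb1 at 0.53 and Mki67 at -0.57 in that order. Median scaling turned the median of the set from 0.14 to -0.11 for IL-6/TGFβ versus IL-6/IL-23 and from -0.03 to 0.08 for IL-6/IL-23 versus TGFβ. The sign of the median itself is thus not settled in either. Relative to the median of all genes it kept its side, at 0.17 and 0.10 in the former comparison and -0.08 and -0.04 in the latter. These differences are smaller than the probe-set spread, and whether the set differs from other genes was not tested. Of the 126 ratios of single genes, 8 moved by more than the probe-set spread with median scaling, 122 without scaling and 25 with the mean of all probe sets. Leaving out an array would leave a condition with none. No paired analysis was possible because each condition has 1 array.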

Other observations

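Genes that Myc is known to switch on for ribosome making and growth were read with Myc's partners, in a list that also held genes of the CDK-activating kinase. Of 28 on the array, 26 were above the floor on at least 1 array of each comparison. Among the 26, 20 (76.9%) had ratios under 0 for IL-6/TGFβ versus TGFβ and 22 (84.6%) for IL-6/TGFβ versus IL-6/IL-23, where 47.6% and 53.3% of all genes did. With median scaling 20 and 24 did, beside 60.9% and 69.0% of all genes. After quantile normalization the list had medians of -0.17 and -0.20, against 0.02 and -0.03 for all genes. At 2-fold 0 passed in the first comparison, and 2 (7.69%) were lower in the other, where 3.09% of all genes were. These were Max, the obligate partner of Myc, at 345, 465 and 197 (-1.24), and Rrp9, which acts in ribosomal RNA processing, at 517, 950 and 423 (-1.17). Both stayed past 2-fold with median scaling (-1.39 and -1.38), and without scaling they stood at -0.73 and -0.72. For IL-6/IL-23 versus TGFβ the median was 0.06 and Ccnh, a subunit of the CDK-activating kinase, was lower, at 3455, 1562 and 2874 (-1.15, and -0.99 with median scaling).

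Among the 42 cell cycle genes, 23 had 2 or more probe sets above the floor on all arrays. Their probe sets disagreed in sign for 9 genes for IL-6/TGFβ versus TGFβ, for 10 over IL-6/IL-23 and for 12 for IL-6/IL-23 versus TGFβ.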
